A study of Rattus norvegicus with 9 samples.

Results

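The nuclear genes for the subunits of the mitochondrial respiratory chain and ATP synthase were followed in rat tibia. They were taken from the deposited table by symbol: Nduf genes of the A, B, C, S and V series for complex I, Sdha to Sdhd for complex II, Uqcr genes for complex III, Cox4 to Cox8 genes for complex IV and Atp5 genes for complex V. The muscle isoforms Cox6a2 and Cox8b were left out. The rule gave 84 genes of 23768 in the table, with 40 in complex I, 4 in complex II, 8 in complex III, 14 in complex IV and 18 in complex V. A filter on low counts passed 83 of them to the tests. The gene it removed, Atp5hl1, had 2 counts in all 9 libraries together.

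The libraries came from the tibia of male Sprague Dawley rats in a study on bone healing in diabetes, in which a peptide that imitates lysyl oxidase was used. The 3 groups held 3 libraries each. Model had those numbered 1, 2 and 5, while GelMA and PMLGH each had those numbered 2, 3 and 4. The name GelMA commonly stands for gelatin methacryloyl, which sets into a hydrogel. The labels give no age, time point or dose, do not expand PMLGH, and do not say how the Model animals were prepared or whether each replicate is a separate animal. The p-values therefore measure the spread between these libraries, which may be technical in part.

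Oxidative phosphorylation passes electrons from NADH through complex I, or from succinate through complex II, to ubiquinone, and then through complex III, cytochrome c and complex IV to oxygen. Complexes I, III and IV pump protons across the inner membrane, and complex V lets them back to make ATP. Apart from complex II, each complex joins subunits made from nuclear genes with subunits made from mitochondrial DNA. In bone and marrow the pathway serves cells as unlike as osteoblasts, osteoclasts, developing red cells and attached muscle fibres. Maturing red cells lose their mitochondria.

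Most subunit transcripts had slightly lower values in the PMLGH and GelMA groups than in Model, and 15 and 14 of the 83 tested passed as lower (18.1% and 16.9%, beside 11.9% and 9.88% of all genes). Leaving out 1 library moved these counts to between 7 and 24 for PMLGH and between 6 and 23 for GelMA, in several cases to near the share of all genes. Erythroid markers were lower as well, 12 of 12 with PMLGH and 11 of 12 with GelMA, and their part in the members' values was not tested. No member passed as higher in any of the 3 comparisons, where 15.7%, 12.7% and 1.8% of all genes did. Members that passed against Model were lower by between 9.89% and 22.2%, led by Atp5if1, the inhibitor protein of ATP synthase, and Cox7b, a small complex IV subunit. None of the 4 complex II genes passed. No member passed between PMLGH and GelMA with edgeR, while limma on log2(FPKM + 1) called 1, Ndufb4.

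Total counts per library ran from 34571478 to 37166383, and members took 0.750% to 0.769% of the counts in Model, 0.721% to 0.738% in GelMA and 0.697% to 0.731% in PMLGH. Within Model, replicate 2 stood apart, with a chi-square per gene of 33.5 and 28.1 to replicates 1 and 5, against 15.9 between those. It was the lowest of the Model libraries at 46 of the 83 tested members, so counts against Model are also given without it. Markers of the tissue were present: 10 fibroblast and osteoblast genes, among them Col1a1 and Bglap, summed to between 10958 and 29006 CPM over the libraries, and 12 erythroid genes to between 9852 and 15245 CPM. CPM here is the count of a gene relative to the library total after scaling by TMM, a method that assumes most genes do not change. Depth was ample for most members, with a median of 64.2 CPM against 16.3 CPM over all 16816 genes tested.

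Promoters of 72 of the 84 members could be matched by symbol in RefSeq (assembly GRCr8). They are shown because nuclear respiratory factor 1 (Nrf1) and the ETS-family factor GABP are textbook regulators of these genes, and the Nrf1 transcript itself was measured below. The 250 bases before each annotated start were searched on both strands for the NRF1 motif (GCGCA, any base, GCGC) and for the ETS motif CCGGAAG; neither motif's letters contain the other's. The NRF1 motif was in 15.3% of the member promoters and the ETS motif in 27.8%, against 7.58% and 13% of the 12519 promoters of all tested genes. The last 120 bases before the start are printed for 4 members that were lower against Model and for Sdha and Sdhb of complex II, 5′ to 3′ on the gene's own strand, with motif matches in capitals.
Atp5if1: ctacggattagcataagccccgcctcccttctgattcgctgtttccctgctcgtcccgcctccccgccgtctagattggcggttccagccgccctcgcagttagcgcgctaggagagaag
Cox7b: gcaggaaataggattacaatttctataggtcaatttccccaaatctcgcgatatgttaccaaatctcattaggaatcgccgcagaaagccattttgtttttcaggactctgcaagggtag
Uqcrh: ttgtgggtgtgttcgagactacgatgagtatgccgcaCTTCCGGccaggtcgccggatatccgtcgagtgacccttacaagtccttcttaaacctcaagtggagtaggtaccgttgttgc
Ndufa12: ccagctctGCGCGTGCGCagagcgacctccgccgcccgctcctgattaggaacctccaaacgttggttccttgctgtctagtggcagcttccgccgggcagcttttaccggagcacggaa
Sdha: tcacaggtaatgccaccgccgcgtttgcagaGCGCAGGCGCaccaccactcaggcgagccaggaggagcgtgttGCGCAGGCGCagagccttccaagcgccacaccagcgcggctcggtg
Sdhb: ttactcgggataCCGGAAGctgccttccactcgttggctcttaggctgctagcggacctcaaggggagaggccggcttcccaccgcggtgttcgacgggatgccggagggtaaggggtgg
The windows lie at Atp5if1 chr5:150026678-150026797 on the minus strand, Cox7b chrX:75148916-75149035 on the plus strand, Uqcrh chr5:134790883-134791002 on the minus strand, Ndufa12 chr7:30658196-30658315 on the plus strand, Sdha chr1:30764433-30764552 on the plus strand and Sdhb chr5:158547814-158547933 on the plus strand. Atp5if1 and Cox7b, which had the most negative fold changes among the members that passed in both comparisons, hold neither motif in the printed window, nor in their 250 bases. Ndufa12 holds 1 NRF1 match and Uqcrh 1 ETS match. Sdha holds 2 NRF1 matches and Sdhb 1 ETS match, and neither of these genes passed in any comparison. Of the complex II genes not printed, which did not pass either, Sdhd holds 1 ETS match in its 250 bases and Sdhc neither motif. Of the members lower in both comparisons and not printed, Atp5mf and Ndufb11 hold neither motif and Atp5mg holds 1 ETS match, outside the last 120 bases. Among the members lower in either comparison with a promoter, 1 of 18 held the NRF1 motif (5.56%), against 10 of 54 other tested members (18.5%). The ETS motif stood at 27.8% in both sets. A match describes letters only and shows no binding.

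Levels of different genes were compared as FPKM, which divides the fragments of a gene by its length and by the library's total, averaged over the 9 libraries. The catalytic ATP synthase subunit Atp5f1b was the highest member at 558 ± 31.3 FPKM (SD, n = 9). Cox4i1, the common form of complex IV subunit 4, followed at 469 ± 13.7 FPKM, and Atp5if1 at 349 ± 45.1 FPKM. Of the 84 members, 75 were above 20 FPKM and 7 below 5 FPKM.

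**Figure D1:**
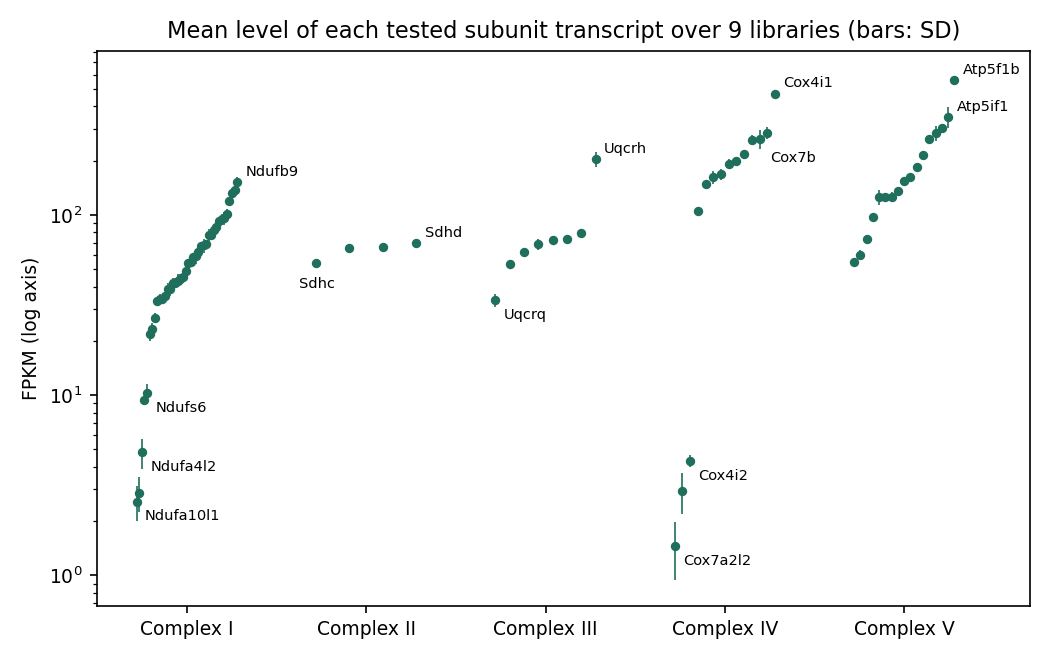
Mean FPKM over 9 libraries (log axis) of the 83 tested members, one dot per gene in rank order within each complex, with bars for the SD. Most members lie above 20 FPKM, complex IV and V genes reach the highest levels, and a few isoforms such as Cox4i2 and Ndufa4l2 lie near or below 5 FPKM.

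The complexes differed in level. The median member stood at 180 FPKM in complex IV and 145 FPKM in complex V, against 51.5 FPKM in complex I, 65.8 FPKM in complex II and 70.5 FPKM in complex III. Complex II was the most even: its 4 genes lay between 54.0 FPKM for Sdhc and 69.8 FPKM for Sdhd, which encode the membrane anchors. In complex III, Uqcrh, the acidic hinge protein beside cytochrome c1, stood at 203 FPKM, and Uqcrc1, a core protein, came next at 79.0 FPKM. Complex I ran from Ndufb9 at 151 FPKM to Ndufa10l1 at 2.57 FPKM. The subunits of the catalytic head of ATP synthase, which are present in the enzyme in a fixed ratio, had transcript levels of 265 FPKM for Atp5f1a, 558 FPKM for Atp5f1b, 96.7 FPKM for Atp5f1c, 73.8 FPKM for Atp5f1d and 215 FPKM for Atp5f1e.

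Isoform pairs showed which form prevailed in this tissue. Cox4i1 outnumbered Cox4i2, a form known from lung and from hypoxic cells, at 469 against 4.31 FPKM. Cox6b1 stood at 200 FPKM and the testis form Cox6b2 at 2.95 FPKM. Ndufa4, which carries a complex I name but is now counted with complex IV, stood at 100 FPKM and its hypoxia-inducible relative Ndufa4l2 at 4.82 FPKM. Atp5mc1, Atp5mc2 and Atp5mc3, which encode the same mature ring subunit, stood at 60.0, 183 and 126 FPKM. Counts of Ndufa13-ps1, Ndufa10l1, Cox7a2l2 and Atp5hl1 are uncertain, because how reads shared with their relatives were counted is not given. Within a group the members varied little: the median coefficient of variation over 3 libraries was 4.76% in Model, 4.51% in GelMA and 4.06% in PMLGH.

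PMLGH against Model is among the comparisons that the series design names. By edgeR's quasi-likelihood test, with p-values adjusted over all genes by the Benjamini-Hochberg method and adjusted p under 0.05 as the threshold, 15 of 83 members were lower (18.1%) and 0 were higher. Over all genes tested, 11.9% were lower and 15.7% higher. A negative log2 fold change was seen for 64 members (77.1%, against 47.8% of all genes), and all 3 PMLGH libraries lay below all 3 Model libraries for 29 members (34.9%, against 18.4%). The reverse held for 3 members, Ndufa4l2, Cox4i2 and Atp5mc2, and for 21.1% of all genes. The median log2 fold change was -0.08 for the members and 0.02 for all genes. In bulk tissue, fewer cells of a type and less RNA per cell cannot be told apart.

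The count of lower members rested on single libraries. It was 7 without Model replicate 1, 24 without Model replicate 2, 9 without Model replicate 5 and 7 without PMLGH replicate 3. In those fits the members' shares were 8.43%, 28.9%, 10.8% and 8.43%, beside 7.97%, 16.3%, 8.74% and 7.4% of all genes. Without replicates 1 or 5 of Model or replicate 3 of PMLGH, the members' share thus lay near that of all genes. No member was called higher in any of these fits except Ndufa4l2 without Model replicate 5.

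**Figure D2:**
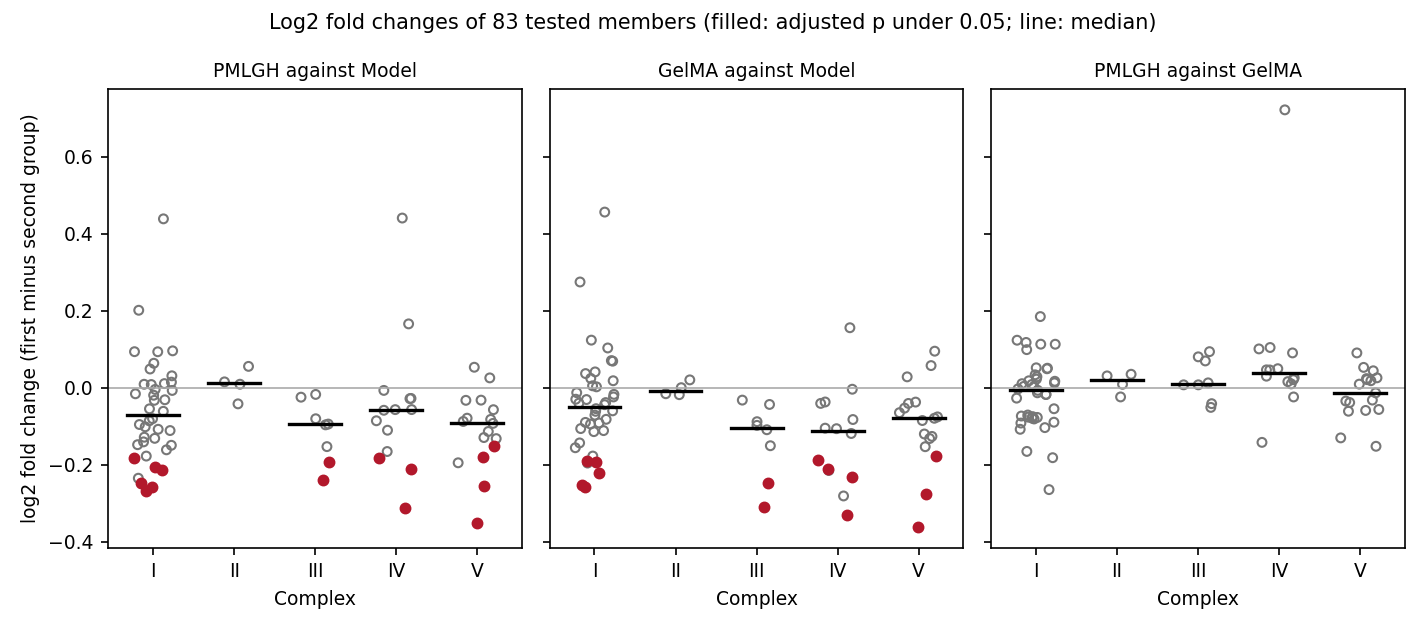
Log2 fold change of each of the 83 tested members by complex, with 1 panel per comparison (first-named group minus second); filled dots passed at adjusted p under 0.05 and lines are medians. Against Model the filled dots all lie below 0 and none is in complex II, and no dot is filled between PMLGH and GelMA.

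GelMA against Model uses the same 3 Model libraries. Here 14 of 83 members were lower (16.9%) and 0 higher, while 9.88% of all genes were lower and 12.7% higher. A negative log2 fold change was seen for 65 members (78.3%, against 45.9% of all genes), and 29 members (34.9%, against 16.8%) had all GelMA libraries below all Model libraries. The reverse held for 1 member, Ndufa4l2, and for 19.8% of all genes. The median log2 fold change was -0.08 for the members and 0.03 for all genes. Both comparisons use the same Model libraries, so each is given by its own values and the likeness of their counts is no separate evidence. The GelMA count was 6 without Model replicate 1, 23 without Model replicate 2, 7 without Model replicate 5, 6 without GelMA replicate 3 and 8 without GelMA replicate 4. Those counts were 7.23%, 27.7%, 8.43%, 7.23% and 9.64% of members, beside 6.03%, 14.4%, 6.33%, 6.69% and 7.13% of all genes, and Ndufa4l2 was called higher without Model replicate 5.

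The members that passed in both comparisons are described next, by complex; this choice uses the shared Model libraries. CPM are given in the order Model replicates 1, 2 and 5, then GelMA replicates 2, 3 and 4, then PMLGH replicates 2, 3 and 4.

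In complex V, Atp5if1 binds the catalytic head and blocks ATP hydrolysis when the proton gradient fails. It stood at 209, 178 and 205 CPM in Model, 163, 149 and 149 CPM in GelMA, and 160, 151 and 153 CPM in PMLGH. Every GelMA and PMLGH library lay below every Model library. The log2 fold change was -0.35 ± 0.07 (SE) for PMLGH (adjusted p = 0.0011) and -0.36 ± 0.07 for GelMA (adjusted p = 0.0012), a level 21.7% and 22.2% lower, and it passed under all 19 alternatives of each comparison. Atp5mf and Atp5mg are small membrane subunits of the stalk base. Atp5mf stood at 149, 124 and 143 CPM in Model, 117, 116 and 110 CPM in GelMA, and 118, 113 and 118 CPM in PMLGH. The groups did not overlap, although Model replicate 2 came close, and the fold changes were -0.26 (adjusted p = 0.0092) for PMLGH and -0.28 (adjusted p = 0.0068) for GelMA. Without Model replicate 1 the PMLGH value was -0.20 and its adjusted p 0.050. Atp5mg stood at 162, 148 and 157 CPM in Model, 138, 137 and 138 CPM in GelMA, and 144, 138 and 139 CPM in PMLGH. Its differences were small, -0.15 (adjusted p = 0.048) for PMLGH and -0.18 (adjusted p = 0.027) for GelMA. These calls were lost in 9 and 7 of the 19 alternatives, with Model replicate 1 or 5 left out among them, with an adjusted p of up to 0.18 for PMLGH and 0.12 for GelMA.

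In complex IV, Cox7b and Cox6a1 are small subunits around the catalytic core, and Cox6a1 is the form used outside heart and skeletal muscle. Cox7b stood at 149, 123 and 135 CPM in Model, 113, 105 and 106 CPM in GelMA, and 115, 103 and 110 CPM in PMLGH. Model replicate 2 was again the lowest of its group but still above all other libraries. The log2 fold change was -0.31 ± 0.07 (adjusted p = 0.0037) for PMLGH and -0.33 ± 0.07 (adjusted p = 0.0034) for GelMA, and both calls held in all 19 alternatives. Cox6a1 stood at 172, 164 and 183 CPM in Model, 153, 144 and 146 CPM in GelMA, and 152, 146 and 151 CPM in PMLGH. The fold changes were -0.21 (adjusted p = 0.012) for PMLGH and -0.23 (adjusted p = 0.0081) for GelMA. The PMLGH call was lost without Model replicate 5 (-0.19) and without PMLGH replicate 3 (-0.19), at an adjusted p of up to 0.055. Complex IV genes as a set had a median of -0.06 for PMLGH, with 3 of 14 lower (21.4%, beside 11.9% of all genes), and -0.11 for GelMA, with 4 of 14 lower (28.6%, beside 9.88%). These medians moved with single libraries. The PMLGH median was -0.02 without PMLGH replicate 3, -0.14 without PMLGH replicate 2 and -0.14 without Model replicate 2, and the GelMA median was -0.18 without GelMA replicate 2 and -0.22 without Model replicate 2.

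In complex III, Uqcrh stood at 133, 120 and 126 CPM in Model, 109, 95.3 and 102 CPM in GelMA, and 108, 105 and 109 CPM in PMLGH. The groups did not overlap, and the fold changes were -0.24 ± 0.06 (adjusted p = 0.0089) for PMLGH and -0.31 ± 0.06 (adjusted p = 0.0021) for GelMA, with both calls kept in all 19 alternatives. All 8 complex III genes had negative values in both comparisons, with medians of -0.10 and -0.10, and 2 of 8 passed in each (25%, beside 11.9% and 9.88% of all genes). Without Model replicate 2 the medians were -0.16 and -0.17. The other passing genes were Uqcr10 for PMLGH (-0.19, adjusted p = 0.031) and Uqcrq for GelMA (-0.25, adjusted p = 0.017), which encode small membrane subunits. Uqcr10 lost its call without Model replicates 1 or 5 or PMLGH replicates 3 or 4, at an adjusted p of up to 0.12, and Uqcrq without Model replicates 1 or 5 or GelMA replicate 4, at up to 0.079. The catalytic iron-sulfur protein Uqcrfs1 stood at -0.09 (adjusted p = 0.22) for PMLGH and -0.04 (adjusted p = 0.62) for GelMA.

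In complex I, Ndufa12, Ndufb9 and Ndufb11 are accessory subunits, which surround the core that carries electrons and protons. Ndufa12 stood at 60.2, 58.7 and 56.9 CPM in Model, 55.4, 48.6 and 50.1 CPM in GelMA, and 48.0, 49.5 and 48.6 CPM in PMLGH. PMLGH libraries were close together and well below Model (-0.27 ± 0.06, adjusted p = 0.0057, kept in all 19 alternatives), whereas GelMA replicate 2 came near Model (-0.19, adjusted p = 0.042). The GelMA call was lost in 8 of 19 alternatives, 6 of them with a library left out, at an adjusted p of up to 0.13. Ndufb9 stood at 107, 102 and 108 CPM in Model, 96.5, 85.6 and 95.2 CPM in GelMA, and 94.3, 88.2 and 92.3 CPM in PMLGH. Ndufb11 stood at 65.1, 61.4 and 67.0 CPM in Model, 58.1, 52.1 and 52.3 CPM in GelMA, and 53.6, 51.8 and 57.5 CPM in PMLGH. Neither gene overlapped with Model in either treated group. Ndufb9 was at -0.21 (adjusted p = 0.019) for PMLGH and -0.19 (adjusted p = 0.031) for GelMA. Ndufb11 was at -0.25 for both, with an adjusted p of 0.012 and 0.013. Leaving out PMLGH replicate 3 or GelMA replicate 3 raised the adjusted p of both genes above the threshold in the matching comparison. Leaving out Model replicate 1 or 5 did so for Ndufb9 in both comparisons, and Model replicate 5 for Ndufb11 with GelMA. The adjusted p reached at most 0.087 and 0.11 for Ndufb9 and 0.063 and 0.055 for Ndufb11, for PMLGH and GelMA.

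**Figure D3:**
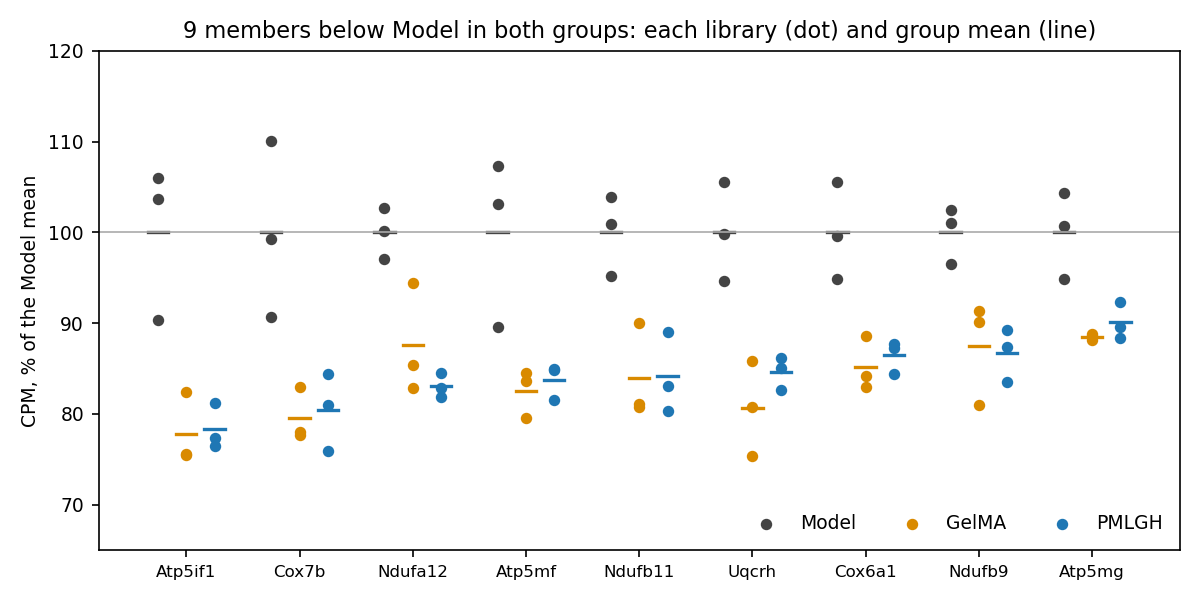
CPM of each library as a percentage of the Model mean, for the 9 members that passed against Model with both PMLGH and GelMA (dots are libraries, short lines group means). All GelMA and PMLGH libraries of these genes lie below all Model libraries, and Atp5if1 and Cox7b lie lowest.

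Of the 7 core subunits of complex I made from nuclear genes, 1 was lower with PMLGH and 0 with GelMA, and of the 33 accessory genes 5 were lower in each (15.2%). Both the 33 and the 5 for PMLGH include Ndufa4, taken here with complex I by its symbol. The 33 also include its relative Ndufa4l2 and the uncertain Ndufa13-ps1 and Ndufa10l1, and leave out the acyl carrier subunit Ndufab1, which the rule does not catch. The shares for PMLGH, 14.3% of core and 15.2% of accessory genes, lay near the 11.9% of all genes called lower, and for GelMA the latter was 9.88%. The core gene was Ndufv2, an iron-sulfur protein of the NADH-oxidising arm. It stood at 80.7, 75.5 and 84.6 CPM in Model, 72.6, 67.1 and 73.2 CPM in GelMA, and 67.1, 63.8 and 70.4 CPM in PMLGH. Its fold change was -0.26 ± 0.06 (adjusted p = 0.0073) for PMLGH, kept in all 19 alternatives. Its GelMA libraries also lay below Model. Ndufv1, its partner in that arm, stood at -0.03 (adjusted p = 0.71) and -0.06 (adjusted p = 0.47), and Ndufs1 at -0.01 (adjusted p = 0.95) and -0.02 (adjusted p = 0.81), for PMLGH and GelMA. The difference between the core and accessory genes was not tested.

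The remaining passing members did so in a single comparison, which does not show that PMLGH and GelMA differ there. With PMLGH they were Ndufb8 (-0.21, adjusted p = 0.015), Cox5b (-0.18, adjusted p = 0.026), Atp5f1b (-0.18, adjusted p = 0.028) and Ndufa4 (-0.18, adjusted p = 0.044). Atp5f1b, the highest member, stood at 1083, 1001 and 1067 CPM in Model, 964, 966 and 970 CPM in GelMA, and 949, 886 and 948 CPM in PMLGH. All Model libraries lay above the others at this gene. With GelMA they were Ndufs4 (-0.22, adjusted p = 0.022), an accessory subunit whose loss causes complex I deficiency, Cox7a2 (-0.21, adjusted p = 0.024), the non-muscle form of its subunit, Cox7a2l (-0.19, adjusted p = 0.031), which ties complexes III and IV together, and Ndufb2 (-0.26, adjusted p = 0.045). Each of these 8 calls was lost without Model replicate 1, at an adjusted p of at most 0.063 for Ndufb8, 0.075 for Cox5b, 0.13 for Atp5f1b, 0.18 for Ndufa4, 0.11 for Ndufs4, 0.09 for Cox7a2, 0.097 for Cox7a2l and 0.15 for Ndufb2 over all alternatives. Cox8a, another complex IV subunit, narrowly missed with GelMA (-0.21, adjusted p = 0.054) and passed in 10 of 19 alternatives.

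Complex II, which also belongs to the citric acid cycle, had no gene that passed in any comparison. Sdha, the flavoprotein, stood at 157, 147 and 148 CPM in Model, 149, 150 and 154 CPM in GelMA, and 157, 148 and 151 CPM in PMLGH. Sdhb, the iron-sulfur protein, stood at 63.9, 62.0 and 60.8 CPM in Model, 62.4, 61.8 and 65.2 CPM in GelMA, and 68.6, 63.3 and 62.1 CPM in PMLGH. The groups overlapped at both genes, as they did at the anchors Sdhc and Sdhd. Sdhc stood at 65.9, 66.1 and 68.1 CPM in Model, 63.4, 66.9 and 67.2 CPM in GelMA, and 66.0, 66.4 and 61.8 CPM in PMLGH. Sdhd stood at 95.2, 98.4 and 97.5 CPM in Model, 97.0, 96.3 and 94.8 CPM in GelMA, and 103, 93.9 and 97.9 CPM in PMLGH. The 95% intervals of the log2 fold change of these 4 genes lay between -0.16 and 0.18 for PMLGH against Model, between -0.14 and 0.15 for GelMA against Model and between -0.15 and 0.16 for PMLGH against GelMA. With PMLGH the interval of Sdhc reached -0.16, past the value of Atp5mg, so a difference of that size is not excluded there. The lower bounds of Sdha, Sdhb and Sdhd were -0.10, -0.07 and -0.10, above the estimate of every passing member. With GelMA the lower bounds of all 4 genes were above the estimates of the passing members. Those members were picked because they passed, and their estimates have intervals of their own, from -0.26 to -0.04 for Atp5mg with PMLGH. The bounds therefore do not show that complex II differs from the passing members, which was not tested. The complex II median was 0.01 and -0.01 against Model for PMLGH and GelMA, and its sign changed between alternatives, whereas the medians of complexes I, III, IV and V were negative in all 19 alternatives of each comparison.

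Complex I as a whole, with Ndufa4, Ndufa4l2, Ndufa13-ps1 and Ndufa10l1 included, had 6 of 40 genes lower with PMLGH (15%, median -0.07). With GelMA 5 of 40 were lower (12.5%, median -0.05). Both shares are close to the 11.9% and 9.88% of all genes. Complex V had 4 of 17 tested genes lower with PMLGH (23.5%, median -0.09) and 3 of 17 with GelMA (17.6%, median -0.08). Over the 19 alternatives the complex I median ran from -0.11 to -0.05 for PMLGH and from -0.08 to -0.01 for GelMA, and that of complex V from -0.15 to -0.08 and from -0.13 to -0.04. The most negative of these values came without Model replicate 2, except for complex I with GelMA, where it came without GelMA replicate 2. In both complexes most members did not pass, and no complex was tested against another.

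Ndufa4l2 and Cox4i2, isoforms that other cells raise at low oxygen, had positive values. Ndufa4l2 stood at 4.72, 3.44 and 5.43 CPM in Model, 5.78, 6.02 and 6.84 CPM in GelMA, and 6.10, 6.23 and 6.08 CPM in PMLGH. All GelMA and PMLGH libraries were above Model, but the test did not pass for PMLGH (0.44 ± 0.17, adjusted p = 0.068) or GelMA (0.46 ± 0.17, adjusted p = 0.067). It passed as higher in 3 of 19 alternatives of each comparison: without Model replicate 5, at 0.57 and 0.60, and with limma on FPKM at either pseudocount. Without Model replicate 2, the lowest library at this gene, its values were 0.24 (adjusted p = 0.28) and 0.26 (adjusted p = 0.25). Cox4i2 stood at 4.01, 4.50 and 4.31 CPM in Model, 5.08, 4.76 and 4.46 CPM in GelMA, and 4.61, 4.88 and 4.91 CPM in PMLGH. Its values of 0.17 (adjusted p = 0.46) and 0.16 (adjusted p = 0.51) did not pass, although all PMLGH libraries lay above all Model libraries. Both genes are also known from pericytes, and 8 of 10 pericyte and smooth muscle markers were higher in each treated group. Of all genes, 15.7% were higher with PMLGH and 12.7% with GelMA. The summed level of these markers was 282 to 290 CPM in Model, 463 to 499 CPM in GelMA and 532 to 561 CPM in PMLGH, and its part in the Ndufa4l2 values was not tested.

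PMLGH against GelMA sets the treatments themselves side by side. None of the 83 members passed in either direction with edgeR, where 1.8% of all genes were higher and 1.64% lower. DESeq2 also called 0, and limma on log2(FPKM + 1) called Ndufb4 lower. At an unadjusted p under 0.05, edgeR listed 4 members, against 15.6% of all genes, and DESeq2 listed 3. The edgeR 4 were Ndufb4 (-0.17 ± 0.06, adjusted p = 0.18), Cox5b (-0.14 ± 0.06, adjusted p = 0.23), Atp5mc1 (-0.15 ± 0.07, adjusted p = 0.28) and Ndufs7 (-0.18 ± 0.08, adjusted p = 0.29), named after their values were seen. Ndufb4, an accessory subunit, stood at 43.2, 42.6 and 45.5 CPM in GelMA and at 38.6, 39.5 and 38.9 CPM in PMLGH. Its libraries did not overlap, a pattern seen at 7 members in that direction (8.43%, against 11.4% of all genes) and at 5 in the other (against 12.3%). Negative values were seen for 35 members (42.2%, against 49.2% of all genes). The member median was 0.01, and the complex medians lay between -0.01 for complex V and 0.04 for complex IV. Atp5if1 itself measured 154 ± 7.94 CPM in GelMA and 155 ± 4.96 CPM in PMLGH (SD, n = 3).

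The 20 members lower in either Model comparison were shorter and more abundant than the other 63 tested. Their median gene length was 594.5 bases against 809, and their median level 141 against 65.2 FPKM. Among the 83 members, Spearman's rho between gene length and log2 fold change was 0.27 for PMLGH and 0.33 for GelMA against Model, and -0.08 for PMLGH against GelMA. Over all tested genes it was 0.08, 0.10 and -0.02. Between level in FPKM and log2 fold change, rho among the members was -0.47, -0.39 and -0.03 in the same order. These are descriptions across genes of the same libraries. The part of length or abundance in the calls was not tested.

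Erythroid markers moved with the members. Of 12 such genes, 12 were lower with PMLGH and 11 with GelMA, beside 11.9% and 9.88% of all genes. The medians were -0.45 and -0.44, and 0 passed for PMLGH against GelMA. No erythroid marker was at 0 in any group, and their summed level was 12203 to 15245 CPM in Model, 10359 to 11202 CPM in GelMA and 9852 to 11079 CPM in PMLGH. Globin genes took 9.54% to 10.1% of the counts in Model, 7.09% to 8.03% in GelMA and 6.87% to 8.07% in PMLGH. Their part in the lower subunit values was not tested. Leaving globin genes out before scaling gave 16 lower members in each comparison (19.3%). In those fits 13% of all genes were lower with PMLGH and 10.8% with GelMA. Among the Model libraries, replicate 2 had the lowest summed erythroid level (12203 CPM) and the highest summed neutrophil and macrophage levels (13769 and 1054 CPM). It was the lowest Model library for 16 of the 20 members called in either comparison, a list picked with these libraries, and for 46 of all 83 tested. Whether these values are linked was not tested. Fibroblast and osteoblast markers went the other way, with 10 of 10 higher in each treated group, and their part was not tested either. Of all genes, 15.7% were higher with PMLGH and 12.7% with GelMA.

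**Figure D4:**
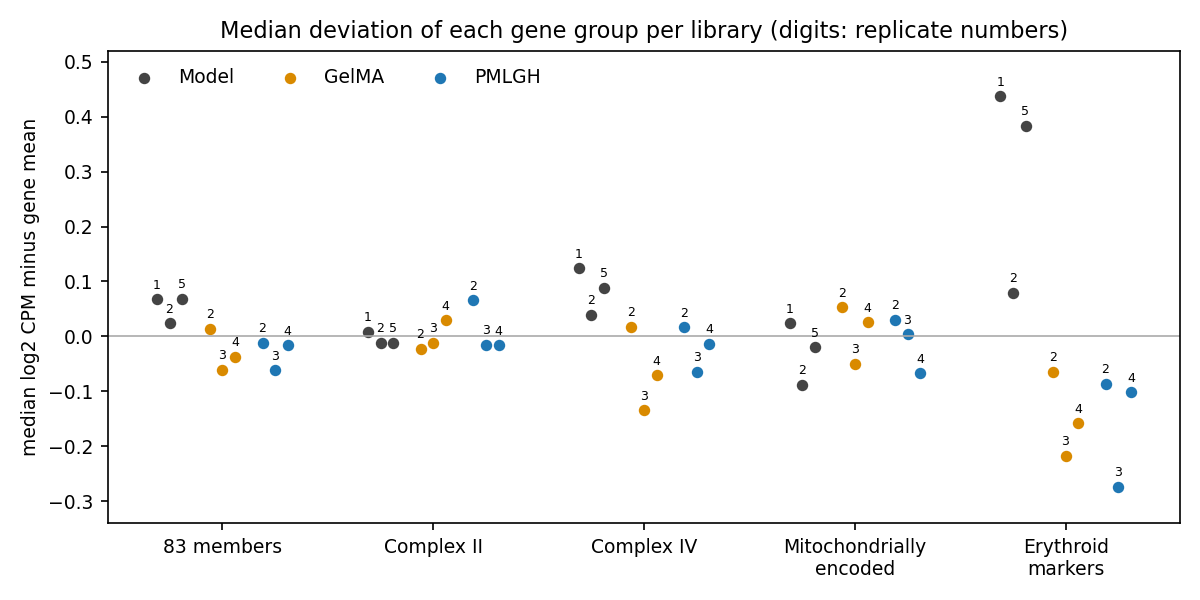
Median over each gene group of log2 CPM minus the gene's mean, per library (digits are replicate numbers). The members and the erythroid markers are highest in Model replicates 1 and 5, while complex II and the mitochondrially encoded genes show no such order.

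Other genes of the pathway were read from lists of known function. The 13 subunits made from mitochondrial DNA had medians of 0.02 for PMLGH and 0.06 for GelMA. With PMLGH 0 passed, and with GelMA ND2 (0.18, adjusted p = 0.046) and ND5 (0.16, adjusted p = 0.043), both of complex I, were higher. This was 2 of 13 genes, where 12.7% of all genes were higher. Those calls were fragile: ND2 lost its call in 15 and ND5 in 14 of 19 alternatives, other scalings included, at an adjusted p of up to 0.26 and 0.25. The summed level of the 13 genes was 49372 to 55325 CPM in Model, 51789 to 54606 CPM in GelMA and 50945 to 54917 CPM in PMLGH, so the groups overlapped in this sum. By gene, 5 of 13 had all GelMA libraries above all Model libraries, against 19.8% of all genes, and 0 the reverse. All PMLGH libraries lay below all GelMA libraries at 4 of 13 (30.8%, against 11.4% of all genes), with 0 the reverse. Cytochrome c1 (Cyc1), cytochrome c (Cycs) and the acyl carrier subunit Ndufab1, which the symbol rule does not catch, had negative values in both comparisons, and 0 of 3 passed. Cyc1 came nearest, at -0.18 (adjusted p = 0.062) with PMLGH.

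Of 46 assembly factors in the table from a list of 50, 1 was higher and 1 lower with PMLGH, and 1 was higher and 0 lower with GelMA. The lower share with PMLGH was 2.17%, below the 11.9% of all genes, and with GelMA 9.88% of all genes were lower. As higher, 15.7% and 12.7% of all genes passed. Cox15, which makes heme a for complex IV, was higher with PMLGH (0.22, adjusted p = 0.031). Lyrm7, which handles the iron-sulfur protein of complex III, was lower with PMLGH (-0.66, adjusted p = 0.023). Ndufaf8, a complex I factor, was higher with GelMA (0.41, adjusted p = 0.035). Each of the 3 calls was lost without Model replicate 1 and in other alternatives, at an adjusted p of up to 0.12, 0.082 and 0.13. The median log2 fold change of the list was -0.02 for PMLGH and -0.02 for GelMA, and its median SE was 0.11, against 0.07 for the members.

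Among 12 regulators of mitochondrial biogenesis, Nrf1, whose motif was searched above, was lower with PMLGH, at 66.0 ± 2.60 CPM against 78.3 ± 3.19 CPM in Model (SD, n = 3; -0.25, adjusted p = 0.0046), and kept this call in all 19 alternatives. Tfam, which packages and transcribes mitochondrial DNA, was lower with PMLGH (-0.29, adjusted p = 0.036), and Esrra, a nuclear receptor of the pathway, was higher (0.25, adjusted p = 0.027). With PMLGH 2 of 12 were thus lower (16.7%, beside 11.9% of all genes) and 1 higher, where 15.7% of all genes were. Tfam lost its call in 6 and Esrra in 9 alternatives, both without Model replicates 1 or 5 among others, at an adjusted p of up to 0.16 for each. With GelMA 0 of the 12 passed, and Nrf1 stood at -0.12 (adjusted p = 0.14). The coactivator Ppargc1a was scarce, at 0.529 ± 0.18 CPM in Model, 1.18 ± 0.28 CPM in GelMA and 0.721 ± 0.13 CPM in PMLGH, and did not pass. Of 17 citric acid cycle and pyruvate dehydrogenase genes, Dlst, a subunit of the oxoglutarate dehydrogenase complex, was lower with PMLGH and GelMA (-0.27, adjusted p = 0.0057 and -0.20, adjusted p = 0.033) and Idh3g with PMLGH (-0.16, adjusted p = 0.032). The shares, 2 of 17 (11.8%) with PMLGH and 1 of 17 (5.88%) with GelMA, were no higher than the 11.9% and 9.88% of all genes. The Dlst call for PMLGH held in all 19 alternatives, that for GelMA was lost in 7, with Model replicate 1 or 5 or any GelMA library left out among them (adjusted p up to 0.15), and that of Idh3g in 3, without Model replicate 1, PMLGH replicate 3 or PMLGH replicate 4 (adjusted p up to 0.13).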

How the data were processed

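RNA from rat tibia was sequenced in 9 libraries. The authors deposited raw counts per gene symbol and FPKM per library. Per the submitters' processing notes, DESeq2 and R 3.2.0 were used, with no role stated. How reads were aligned and counted, on which build and strand, is not given in the sources used here; reads from antisense genes therefore cannot be separated. Each deposited FPKM equalled the count over the library total and 1 length per gene (relative tolerance 1e-04) for all 22798 genes with a count.

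Counts were tested with edgeR 4.0.16 in R 4.3.3: filterByExpr (16816 genes kept), TMM scaling and a quasi-likelihood fit of all 9 libraries with 1 mean per group and no batch term, since the labels name none. Tests were two-sided, adjusted by Benjamini-Hochberg within a comparison, and passed at adjusted p under 0.05. SE is the log2 fold change over the square root of its F statistic. The procedure was tested on simulated counts in which no library stood apart, and only the recovery of median fold changes was required. That test does not cover calls that rest on single libraries. Members, gene lists and tests were chosen with earlier results of these data known. The text names every passing member, the highest and lowest member of each complex, isoform families, the Sdh genes, Atp5if1 and the passing genes of each list. Alternatives were RLE and upper-quartile scaling, globin genes left out, other count filters, DESeq2 1.42.0, a robust fit, only the 2 groups compared, limma 3.58.1 on log2 of FPKM plus 1 or 0.1, and each library left out. Promoter sequences are from RefSeq (GRCr8), in which 72 of the 84 members had one under their symbol.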

Additional observations from a re-analysis of the deposited data

How the results depend on the processing

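No result changed direction under an alternative that called it. Upper-quartile scaling moved the member median of PMLGH against Model to -0.12, and the median of all genes from 0.017 to -0.018. With limma on log2(FPKM + 1) and on log2(FPKM + 0.1), 1 member (Ndufa4l2) was higher against Model with PMLGH and with GelMA. GelMA against Model then had 9 and 8 lower members (10.8% and 9.64%, beside 6.58% and 6.56% of all genes). The member medians were -0.0353 and -0.0356, and those of all genes 0.0372 and 0.0629. For PMLGH against GelMA, limma on log2(FPKM + 1) called 1 member (Ndufb4) lower, 1.2% of members beside 1.47% of all genes. Leaving out each library in turn gave, for PMLGH against Model, 7 to 24 lower and 0 to 1 higher members and medians of -0.129 to -0.0509. For GelMA against Model it gave 6 to 23 lower, 0 to 1 higher and medians of -0.115 to -0.0699, and for PMLGH against GelMA 0 lower, 0 higher and medians of -0.0158 to 0.0262. All other alternatives kept the counts within 1.5 times. The causes were not tested. In PMLGH against GelMA, a replicate block on the shared numbers 2, 3 and 4 called 0 members, and 577 genes higher and 460 lower, against 590 and 469 in the same groups without it. Same-numbered libraries did not deviate together (correlations of 0.01, 0.03 and -0.01 over 16816 genes). With 3 libraries per group this cannot settle whether equal numbers mark a shared animal, litter or day, and the labels do not say. No paired analysis was possible for the Model comparisons because Model shares only the number 2 with the other groups. Of the calls, 5 of 15 and 5 of 14 held in all 19 alternatives.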

Other observations

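The muscle isoforms of complex IV left out by the rule behaved unlike the members. Cox6a2 stood at 3.67 ± 1.00 CPM in Model, 12.3 ± 3.75 CPM in GelMA and 5.58 ± 1.39 CPM in PMLGH (SD, n = 3). By edgeR's quasi-likelihood test it was higher with GelMA than with Model (1.74, adjusted p = 1.6e-04), not shown to differ for PMLGH (0.61, adjusted p = 0.091), and lower with PMLGH than with GelMA (-1.13, adjusted p = 0.014). That last call was lost without GelMA replicate 4 or PMLGH replicate 3 and with limma, at an adjusted p of up to 0.095. Cox8b stood at 0.651 ± 0.22, 3.97 ± 0.90 and 1.31 ± 0.33 CPM in the same order. It was higher than Model with GelMA (2.61, adjusted p = 5.7e-05) and with PMLGH (1.01, adjusted p = 0.038; lost in 7 of 19 alternatives, 6 of them with a library left out, adjusted p up to 0.15), and lower with PMLGH than with GelMA (-1.60, adjusted p = 0.0070). Skeletal muscle markers, a list that includes both genes, moved with them: 15 of 15 were higher with GelMA and 12 of 15 with PMLGH than in Model, and 15 of 15 were lower with PMLGH than with GelMA. The shares of all genes were 12.7%, 15.7% and 1.64% in the same order. The summed level of the muscle markers was 624 to 891 CPM in Model, 2967 to 3612 CPM in GelMA and 994 to 1386 CPM in PMLGH. The part of muscle in the members' values was not tested.

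Of 5 brown adipocyte markers 4 were in the table, with a summed level of 6.64 to 10.4 CPM in Model, 9.71 to 11.9 CPM in GelMA and 11.6 to 13.1 CPM in PMLGH. The absent symbol was Cox7a1, a complex IV gene that the rule would have caught, so it could not be set beside Cox7a2. Ucp1, the uncoupling protein that defines the cell type, had at most 4 counts in a library, and Elovl3 was at 0 in 8 of 9 libraries. Of the 2 that were tested, Dio2, a deiodinase, was higher than in Model with PMLGH (1.33, adjusted p = 8.0e-05) and GelMA (1.30, adjusted p = 1.4e-04), and Cidea, a lipid droplet protein, passed in no comparison. Their part in the members' values was not tested. Macrophage markers were higher in 5 of 7 tested genes with PMLGH and 3 of 7 with GelMA than in Model, and neutrophil markers in 3 of 9 and 1 of 9. Of all genes, 15.7% and 12.7% were higher in these comparisons.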
